A study of Allium sativum with 18 samples.

Results

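Genes whose transcript abundance changed during bulb enlargement in the garlic variety Ershuizao, and hardly at all in 2 other varieties, are described here. The 83 members, of 57561 genes in the table and 22496 genes expressed in all 3 varieties, were chosen by a rule on measured values. Abundance was taken as log2(FPKM + 0.5), where FPKM is fragments per kilobase of transcript, scaled to the depth of the library. A member had to differ by at least 1 on this scale (2-fold) between enlarging Ershuizao bulbs and Ershuizao bulbs before enlargement, with no overlap between the 3 and 3 libraries. It also had to differ by less than 0.5 between the same stages in each of Chalingzipisuan and Yuanjiangyangsuan, and to have a mean FPKM of at least 1 over the 6 libraries of each variety. The stage differences of the members are therefore a description and were not tested. The name of the set holds for mean differences only, since it was not tested whether the change in Ershuizao differed from those in the other varieties.

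The study set bulbs under enlarging growth against bulbs not yet enlarging to find genes that act in bulb growth. The 18 RNA-sequencing libraries came from Ershuizao, Chalingzipisuan and Yuanjiangyangsuan plants that were planted in 2019 in the field of a single institute, with 3 individuals per variety and stage, and the labels give no treatment for any plant. Bulbs under enlarging growth were taken a month after those before enlargement, so that stage and sampling date cannot be told apart, and bulbs of the same date need not be equally far in growth. The deposited labels name leaf as the tissue and bulb as the stage. Which of them fits could not be checked against marker genes, because gene names are not paired with the identifiers in the file used here. In such bulk samples, a lower share of a cell type and less RNA per cell cannot be told apart.

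A garlic bulb is a cluster of cloves, each formed from an axillary bud whose storage leaf swells. Bulbing in *Allium* starts as days lengthen and temperature rises, and FT-like proteins made in leaves are known in onion to promote or delay it. Auxin and gibberellin pathways are further regulators of bud and storage organ growth. Varieties differ in when they bulb, and genes that move with growth in a single variety can be searched for by comparing stage differences between varieties.

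Depth on genes was 10340511 to 14117986 fragments per library, of which the 10 most abundant genes took 4.97% to 9.24%. Enlarging replicate 3 of Chalingzipisuan stood apart from its group. Its log2 values correlated with those of the other 2 libraries at a mean r of 0.794 across the 22496 expressed genes, against 0.873 or more for each other library and its own group. Genes are not independent replicates, so this r is a description. The membership of the genes is therefore given below also without this library.

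Of the 22496 expressed genes, 2788 (12.4%) changed at least 2-fold without overlap in Ershuizao, 1109 upward (4.93%) and 1679 downward (7.46%). Few of these genes changed in Ershuizao alone, since 2705 were not steady elsewhere and 2357 of them moved in the same direction by at least 0.5 in both other varieties. The 83 members made up 2.98% of the 2788 genes. The 26 rising members were higher in enlarging Ershuizao bulbs, and the 57 falling members were lower there. With Chalingzipisuan as the changing variety, the same rule kept 74 genes (46 rising, 28 falling) of 2347 genes (10.4% of the expressed genes) that changed. With Yuanjiangyangsuan it kept 881 genes (445 rising, 436 falling) of 6068 (27%). The rule used these contrasts, so nothing is read from the shares. Among members falling genes outnumbered rising ones, as they did among the 2788 genes that changed in Ershuizao.

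The differences of rising members ranged from 1.00 to 2.54 with a median of 1.17, and those of falling members ranged from -2.07 to -1.01 with a median of -1.23. In 25 members the size of the difference was under 1.1, and in 13 members it was at least 1.5. The median member differed 2.33-fold between the stages on the log2(FPKM + 0.5) scale, which understates the change of weakly expressed genes. Just inside the limit were Asa1G04379.1 and Asa7G07241.1, each with a difference of 1.00. Just outside were Asa5G02765.1 and Asa3G00678.1, each with a difference of -0.99, and 47 genes that met all else had a size between 0.9 and 1. In the other varieties, 47 of 83 members had the sign of Ershuizao in Chalingzipisuan and 46 of 83 had it in Yuanjiangyangsuan. A difference of at least 0.4 in 1 or both of these varieties was found for 25 members, and 23 members stayed under 0.25 in both.

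**Figure D1:**
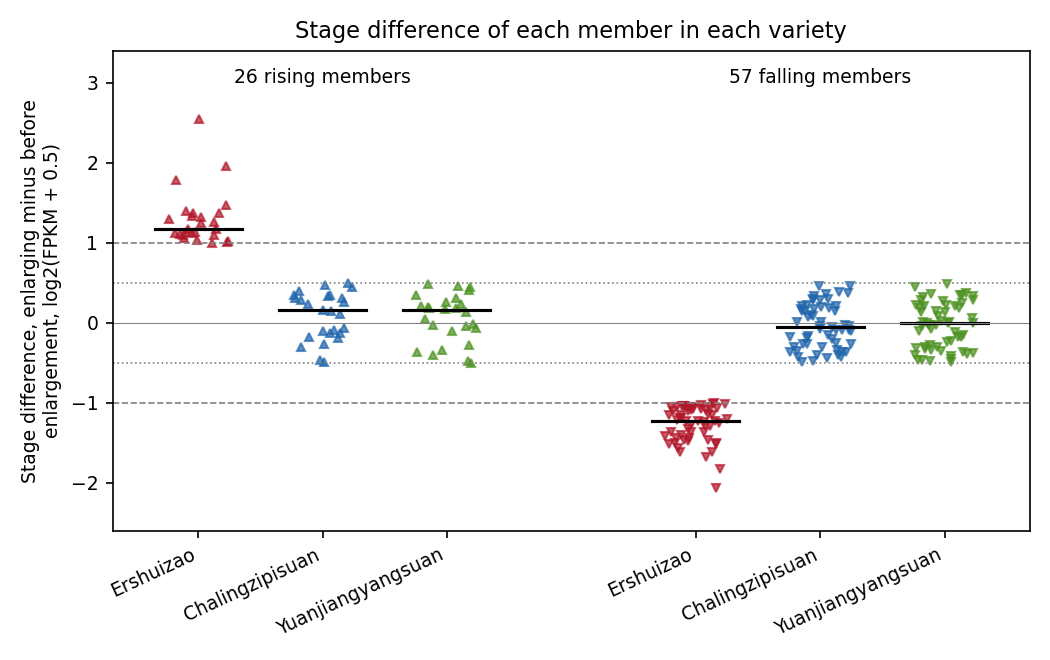
Stage difference (enlarging minus before enlargement) of log2(FPKM + 0.5) for each member in each variety, with a triangle per gene, the median as a black bar, dashed lines at the limit of 1 and dotted lines at the limit of 0.5. The 26 rising and 57 falling members have medians of 1.17 and -1.23 in Ershuizao and fill the whole band between -0.5 and 0.5 in both other varieties, which the rule fixes.

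Most members were weakly expressed genes. Their median was 32 fragments per library (range of the medians 4 to 6088), against 135 fragments for the median expressed gene, and 30 members had under 20 fragments. An Ershuizao library with 3 fragments or fewer was found for 20 members. The median member had a mean of 4.49 FPKM and a length of 471 bases, recovered from the FPKM values, and the median expressed gene had 11.7 FPKM and 861 bases. The spread between replicates was larger as well, with a median SD within stages of 0.49 in Ershuizao, 0.51 in Chalingzipisuan and 0.42 in Yuanjiangyangsuan on the log2 scale, against 0.29, 0.37 and 0.30 for the expressed genes. In 42 members the SD in Chalingzipisuan was above 0.5, the largest stage difference that the rule allows there. When the rule was run on simulated libraries, it also passed genes that had been given no change. An unknown and possibly large part of the 83 members may therefore not differ between the stages.

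Averaged over members, the enlarging libraries of Ershuizao stood apart from every other group. The mean log2 abundance of the rising members was 3.96 to 4.04 in the enlarging Ershuizao libraries, and 2.53 to 2.88 before enlargement. It was 2.71 to 3.37 in enlarging Chalingzipisuan bulbs and 2.87 to 3.09 before enlargement, and 2.79 to 2.89 in enlarging Yuanjiangyangsuan bulbs and 2.75 to 2.84 before enlargement. The mean of the falling members was 1.33 to 1.5 in the enlarging Ershuizao libraries, against 2.59 to 2.82 before enlargement, and it was 2.25 to 2.74 in all 12 libraries of the other varieties. All 3 enlarging Ershuizao libraries thus had the shift of both groups, as the rule asks of each gene. On these means the libraries before enlargement lay nearer to the other varieties. This position is linked to the rule through the stage difference and was not tested, so nothing is read from it. Departures in opposite directions cancel in such means. By member, the stage before enlargement differed from the other varieties by -1.26 to 1.34. It lay within 0.5 of them in 48 of 83 members, and the enlarging stage did so in 14. The same counts were not taken over the expressed genes, and nothing is read from them.

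**Figure D2:**
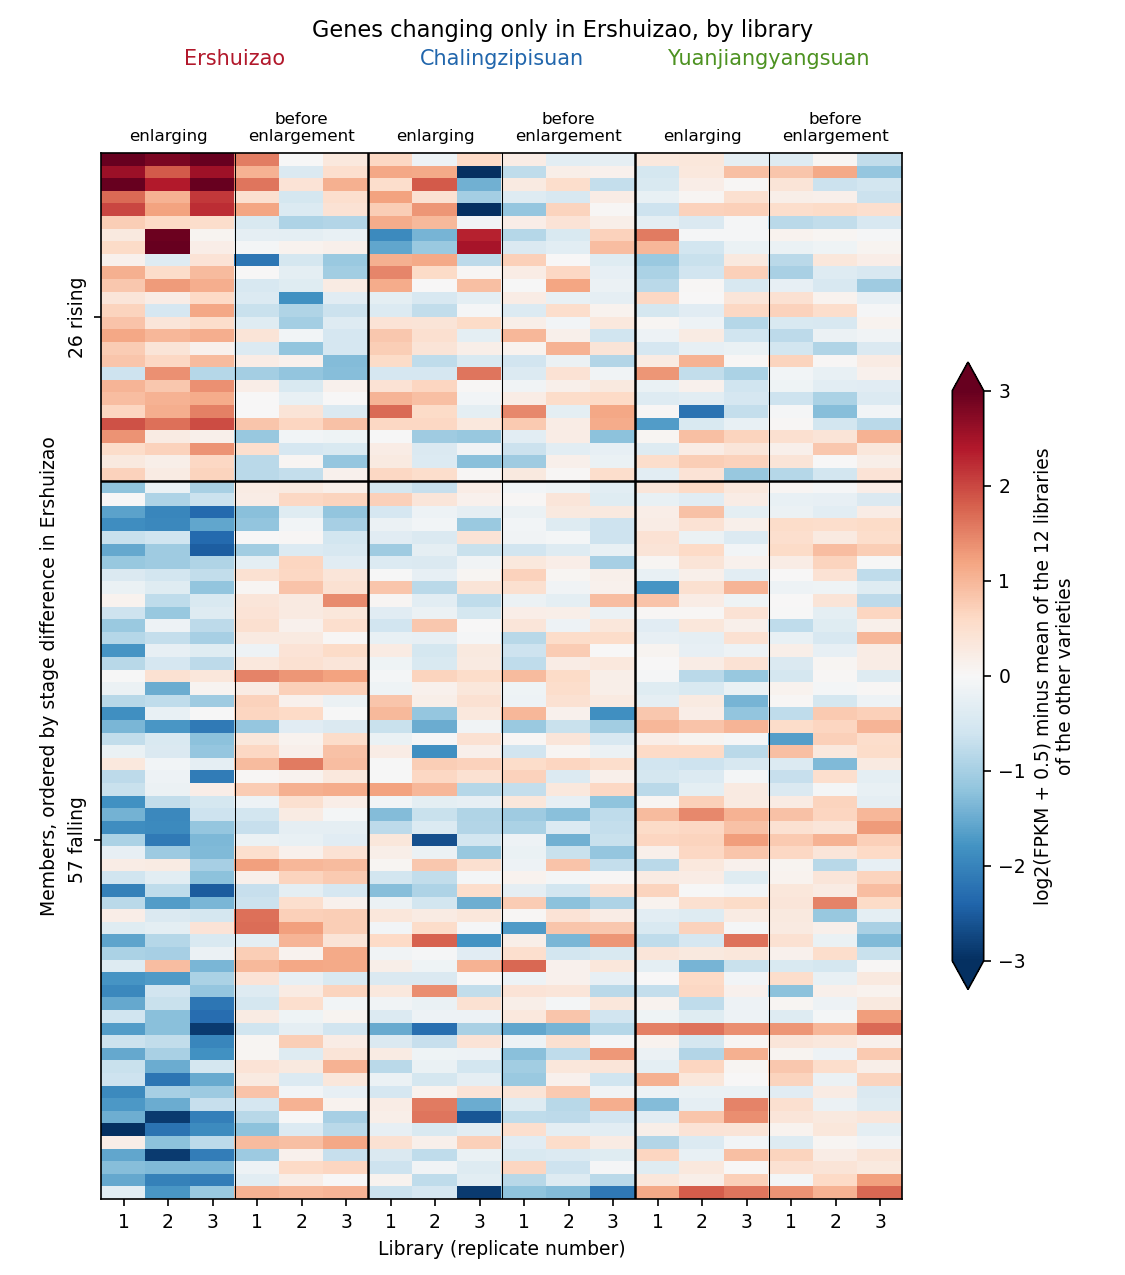
Heat map of the 83 members (rows, by stage difference in Ershuizao, 26 rising above 57 falling) in the 18 libraries (columns, replicate numbers below), coloured by log2(FPKM + 0.5) minus the gene's mean in the 12 libraries of the other varieties. The 3 enlarging Ershuizao columns are red for most rising and blue for most falling members, and several rising members are deep blue or deep red in enlarging replicate 3 of Chalingzipisuan.

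Asa8G04790.1 had the largest rise, and the 3 enlarging Ershuizao libraries exceeded all 15 others. It reached 15.4, 12.4 and 20.01 FPKM in enlarging Ershuizao bulbs, against 4.75, 1.3 and 1.74 FPKM before enlargement. In Chalingzipisuan it had 2.27, 1.12 and 2.24 FPKM in enlarging bulbs, against 1.62, 0.95 and 0.99 FPKM before enlargement. In Yuanjiangyangsuan it had 1.74, 1.78 and 1.00 FPKM in enlarging bulbs, against 0.874, 1.39 and 0.591 FPKM before enlargement. The means in Ershuizao were 15.9 ± 3.84 FPKM in enlarging bulbs and 2.60 ± 1.88 FPKM before enlargement (SD, n = 3 each), a difference of 2.54 on the log2 scale that rests on 1214 and 228 fragments. Its differences in Chalingzipisuan and Yuanjiangyangsuan were both 0.48 and upward, just under the limit of 0.5. The gene was thus far higher in enlarging Ershuizao bulbs than elsewhere, and its other varieties pointed the same way by a small step.

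The second largest rise was that of Asa1G03592.1, which was steady in Chalingzipisuan only with the library that stands apart. It had 64.1, 39.0 and 63.7 FPKM in enlarging Ershuizao bulbs, against 22.0, 7.55 and 15 FPKM before enlargement, a difference of 1.95. Chalingzipisuan had 24.0, 23.5 and 0.603 FPKM in enlarging bulbs, against 5.90, 11.8 and 11.5 FPKM before enlargement. Its 2 other enlarging Chalingzipisuan libraries lay above all 3 libraries before enlargement, and the low value, of 2 fragments, came from enlarging replicate 3. In Yuanjiangyangsuan it had 7.03, 13 and 19.9 FPKM in enlarging bulbs, against 19.1, 23.6 and 4.36 FPKM before enlargement, and the stages overlapped.

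Its neighbour in identifier order, Asa1G03591.1, was also a member and had the same pattern. It had 45.2, 25.8 and 52.4 FPKM in enlarging Ershuizao bulbs, against 25.6, 8.12 and 15 FPKM before enlargement, a difference of 1.40. The values were 18.7, 28.3 and 0.207 FPKM in enlarging Chalingzipisuan bulbs, against 4.61, 17.7 and 11.3 FPKM before enlargement, and the low value was a single fragment from the same library. Both genes are short, with recovered lengths of 336 and 231 bases.

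**Figure D3:**
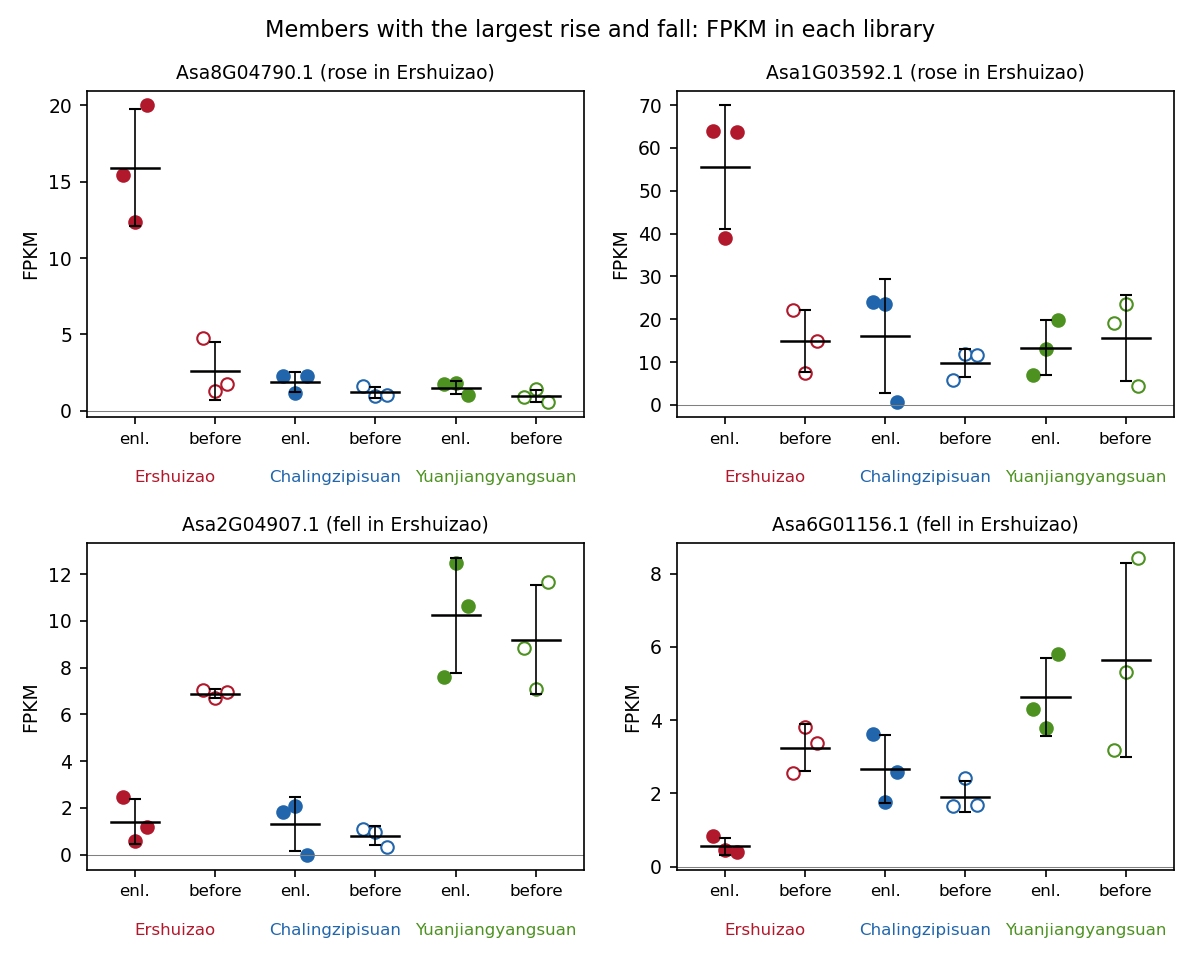
FPKM in each library of the 2 members with the largest rise (top) and the 2 with the largest fall (bottom), with filled points for enlarging bulbs, open points for bulbs before enlargement, bars for the mean and whiskers for the SD (n = 3). Asa8G04790.1 is at 12.4 to 20.01 FPKM in enlarging Ershuizao bulbs and at 4.75 FPKM or less everywhere else, whereas the fallers sit at different levels in the other varieties.

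Of the fallers, Asa2G04907.1 had the largest difference, at -2.07. It had 2.46, 0.588 and 1.2 FPKM in enlarging Ershuizao bulbs, against 7.04, 6.68 and 6.96 FPKM before enlargement. In Yuanjiangyangsuan it had 7.60, 12.5 and 10.7 FPKM in enlarging bulbs, against 8.83, 7.07 and 11.7 FPKM before enlargement. In Chalingzipisuan it had 1.85, 2.10 and 0 FPKM in enlarging bulbs, against 1.09, 0.986 and 0.335 FPKM before enlargement. Ershuizao bulbs thus lay near Yuanjiangyangsuan bulbs before enlargement and near Chalingzipisuan bulbs in the enlarging stage. The counts behind these values were small, with 31 fragments in the enlarging Ershuizao libraries together, against 173 before enlargement.

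Asa6G01156.1 came next, at -1.84. It had 0.820, 0.441 and 0.401 FPKM in enlarging Ershuizao bulbs, against 2.55, 3.81 and 3.37 FPKM before enlargement. The 12 libraries of the other varieties ranged from 1.64 to 8.43 FPKM, with a median of 3.4 FPKM. All 3 enlarging Ershuizao libraries were below every other library, but they held 8 fragments together, against 54 before enlargement.

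The most abundant members were less clear cut, because 1 library carried the rise. Asa2G01772.1 had 474, 1897 and 406 FPKM in enlarging Ershuizao bulbs, against 364, 325 and 302 FPKM before enlargement. Without the library at 1897 FPKM, enlarging replicate 2, its difference of 1.12 came to 0.41. Chalingzipisuan bulbs had 514, 520 and 2246 FPKM when enlarging and 550, 989 and 687 FPKM before enlargement. Yuanjiangyangsuan bulbs had 1845, 443 and 378 FPKM when enlarging and 698, 633 and 800 FPKM before enlargement. A single enlarging library of each variety was thus higher than the other 5 libraries of that variety.

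The neighbours Asa5G00798.1 and Asa5G00799.1 were high in those same libraries. Asa5G00799.1 had 297, 1853 and 254.97 FPKM in enlarging Ershuizao bulbs, against 201, 196 and 208 FPKM before enlargement. It had 63.8, 91.1 and 1201 FPKM in enlarging Chalingzipisuan bulbs, against 132, 177 and 393 FPKM before enlargement, and 716, 236 and 236.5 FPKM in enlarging Yuanjiangyangsuan bulbs, against 262, 251 and 238 FPKM before enlargement. Asa5G00798.1 had 285, 2020 and 221 FPKM in enlarging Ershuizao bulbs, against 183, 205 and 213 FPKM before enlargement. Without enlarging replicate 2 of Ershuizao, the difference of Asa5G00799.1 went to 0.45 (1.36 with all libraries), and that of Asa5G00798.1 went to 0.33 (1.33 with all libraries). The rises of these 3 genes therefore rest on that library.

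The abundant fallers differed by about 2-fold, with replicates more even than those of the abundant rising members. Asa8G03418.1 had 53.9, 41.2 and 31.7 FPKM in enlarging Ershuizao bulbs, against 62.3, 110 and 104 FPKM before enlargement, a difference of -1.10. It was higher in Yuanjiangyangsuan, at 281, 254 and 285 FPKM in enlarging bulbs, against 207, 220 and 287 FPKM before enlargement. In Chalingzipisuan it had 88.1, 49.7 and 130 FPKM in enlarging bulbs, against 64.3, 88.7 and 67.6 FPKM before enlargement. Asa7G02600.1 had 28.6, 69.5 and 20.4 FPKM in enlarging Ershuizao bulbs, against 73.0, 95.3 and 82.2 FPKM before enlargement, a difference of -1.26. Its highest enlarging Ershuizao library came close to its lowest before enlargement, and its SD within stages was 0.65. Smaller falls were found in Chalingzipisuan (-0.43) and Yuanjiangyangsuan (-0.32). Chalingzipisuan had 48.2, 61.6 and 170 FPKM in enlarging bulbs, against 97.6, 80.7 and 159 FPKM before enlargement. The gene was steady there only with enlarging replicate 3, the library that stands apart.

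Members were also placed against the level of the other varieties, taken as the mean of their 12 libraries. In enlarging Ershuizao bulbs the median rising member was 0.94 above the other varieties on the log2 scale, and before enlargement it was at -0.23. The median falling member was at -1.01 in enlarging bulbs and at 0.23 before enlargement. The stage before enlargement was the nearer to the other varieties in 65 of 83 members (18 rising, 47 falling), and the enlarging stage in 18 (8 rising, 10 falling). In 57 members the other varieties lay between the Ershuizao stages. The enlarging libraries of Ershuizao lay outside all 15 other libraries in 16 members (5 rising, 11 falling), and those before enlargement did so in 6 (1 rising, 5 falling). The rule already keeps the Ershuizao stages apart, and the same counts were not taken over the expressed genes. Nothing is therefore read from these counts.

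The same measure was taken for the genes chosen by the mirrored rule. The median of the rising genes of Chalingzipisuan was 0.34 in its enlarging bulbs and -0.90 before enlargement, and that of its falling genes was -0.74 and 0.45. For Yuanjiangyangsuan the rising genes had medians of 0.58 in enlarging bulbs and -0.71 before enlargement, and the falling genes -0.70 and 0.55. The median falling gene of all 3 varieties thus departed further in the enlarging stage. The median rising gene did so in Ershuizao, whereas in Chalingzipisuan and Yuanjiangyangsuan it departed further before enlargement. The difference between these sets was not tested, since each was chosen by its own stage difference.

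**Figure D4:**
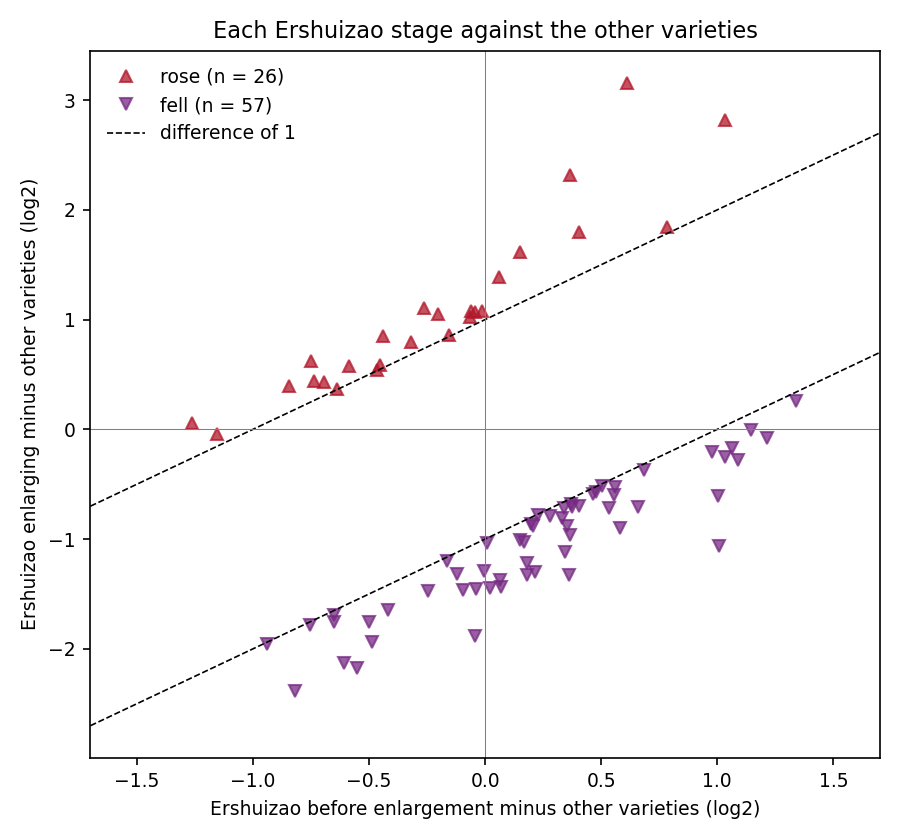
For each member, the mean log2(FPKM + 0.5) of Ershuizao minus that of the 12 libraries of the other varieties, before enlargement on the x axis and in enlarging bulbs on the y axis, with dashed lines at the limit of 1. Rising members (n = 26) lie above the upper line by rule and falling members (n = 57) below the lower one, and along the lines the before-enlargement stage lies nearer to 0 in 65 members.

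Whether members differed between varieties in level, averaged over both stages, was tested with limma over all 18 libraries. The rule set no difference in level, but it asked for a mean FPKM of at least 1 in each variety. Genes were called at an adjusted P under 0.05 and a difference above 2-fold. Because the rule also selected on the spread within Ershuizao, P values of members may be too small. The level of Ershuizao also includes the enlarging libraries by which members were chosen. Counts are set beside the share called among the 22496 expressed genes. All 83 members were tested. Between Ershuizao and Chalingzipisuan 4 members (4.82%) were called, against 0.871% of the expressed genes. Between Ershuizao and Yuanjiangyangsuan 23 members (27.7%) were called, against 12.9%. Between Yuanjiangyangsuan and Chalingzipisuan, which the rule asks to be steady, 16 members (19.3%) were called, against 11.7%. The shares over all 33681 genes tested, which include weakly expressed genes, were 1.37%, 24.4% and 23.1%, so that the share of members in the third contrast lay above that of the expressed genes and below that of all genes. These differences between shares were not tested.

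The direction of the stage difference was set beside that of the level difference. The level includes the enlarging Ershuizao libraries by which members were chosen, so both directions may be linked through the choice. Their match is a description and not an independent result. Of the 23 members called between Ershuizao and Yuanjiangyangsuan, 16 were lower in Ershuizao, all of them falling members (28.1% of the 57, against 5.41% of the expressed genes). Against Yuanjiangyangsuan, no rising member was lower in Ershuizao at an unadjusted P under 0.05 in limma (0 of 26) or called lower with limma voom on fragments (0 of 26). Against Chalingzipisuan, 3 rising members were lower at an unadjusted P under 0.05, and none was called (0 of 26, also with limma voom). The other 7 members called between Ershuizao and Yuanjiangyangsuan were higher in Ershuizao. They were 5 rising members (19.2%) and 2 falling members (3.51%), against 7.49% of the expressed genes. The median level difference between Ershuizao and Yuanjiangyangsuan was 0.52 for rising and -0.46 for falling members, and between Ershuizao and Chalingzipisuan it was 0.26 for rising and -0.25 for falling members, against -0.0089 and -0.0024 for the expressed genes. Among falling members, 43 of 57 were lower than in Yuanjiangyangsuan and 42 of 57 lower than in Chalingzipisuan. Among rising members, 19 of 26 were higher than in Yuanjiangyangsuan and 15 of 26 higher than in Chalingzipisuan.

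Against both other varieties at once, 2 members were called higher in Ershuizao (0.222% of the expressed genes were) and 2 lower (0.111%). Asa8G04790.1, described above, was higher than in Chalingzipisuan by 1.77 (95% confidence interval 1.2 to 2.34, limma adjusted p = 0.00162) and higher than in Yuanjiangyangsuan by 2.00 (1.43 to 2.57, limma adjusted p = 1.71e-05). The enlarging stage held most of this difference, since its libraries before enlargement overlapped those of the other varieties.

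Asa2G05057.1 had 18.2, 11.9 and 19.8 FPKM in enlarging Ershuizao bulbs, against 6.79, 2.66 and 4.51 FPKM before enlargement. In Chalingzipisuan it had 2.94, 7.94 and 0.376 FPKM in enlarging bulbs, against 2.34, 2.93 and 0.942 FPKM before enlargement, and in Yuanjiangyangsuan it had 1.03 to 2.62 FPKM in all 6 libraries. The value of 0.376 FPKM, of 4 fragments, came from enlarging replicate 3 of Chalingzipisuan. Only with that library was the gene steady in Chalingzipisuan, and without it the gene rose there too. Its level in Ershuizao was higher by 2.09 than in Yuanjiangyangsuan (limma adjusted p = 0.00116) and by 1.76 than in Chalingzipisuan (limma adjusted p = 0.0454). The enlarging stage held most of this, at 2.82 above the mean of the other varieties, against 1.04 before enlargement. Before enlargement, Ershuizao libraries overlapped those of Chalingzipisuan. The call against Chalingzipisuan was lost in 15 of the 18 fits without 1 library (all but those without enlarging replicate 2 or 3 of Chalingzipisuan or replicate 2 before enlargement of Ershuizao) and in 4 of 11 other settings, with adjusted p between 0.00726 and 0.131 over all of them.

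Of the members called lower, Asa7G04152.1 had 10.1, 7.90 and 5.95 FPKM in enlarging Ershuizao bulbs, against 13, 24.5 and 13.7 FPKM before enlargement. It had 22.4, 28.7 and 26.2 FPKM in enlarging Chalingzipisuan bulbs, against 27.9, 39.1 and 39.0 FPKM before enlargement, and 36.9, 59.0 and 26.0 FPKM in enlarging Yuanjiangyangsuan bulbs, against 28.1, 25.5 and 37.3 FPKM before enlargement. Every enlarging Ershuizao library was below all other libraries. Its level in Ershuizao differed by -1.36 from Chalingzipisuan (limma adjusted p = 0.00193) and by -1.54 from Yuanjiangyangsuan (limma adjusted p = 2.11e-05).

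Asa1G03385.1 had 0.138, 0.641 and 0.943 FPKM in enlarging Ershuizao bulbs, against 1.75, 3.50 and 2.51 FPKM before enlargement. The 12 libraries of the other varieties had 3.39 to 6.97 FPKM, with a median of 4.59 FPKM, and all but 1 of the 6 Ershuizao libraries lay below that range. Its level in Ershuizao differed by -1.41 from Chalingzipisuan (limma adjusted p = 0.00226) and by -1.79 from Yuanjiangyangsuan (limma adjusted p = 8.1e-06). It was thus low in Ershuizao at both stages, and lowest in enlarging bulbs.

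Each library decided the membership of some genes. When 1 library was left out, 61 to 159 genes met the rule, and 57 to 74 of the 83 members were among them. The count grew most when a library of Ershuizao was absent, to 159 genes for enlarging replicate 2, 146 for replicate 1 of the earlier stage and 133 for enlarging replicate 1. With fewer Ershuizao libraries the condition of no overlap is easier to meet, so that some growth follows from the rule itself. Without enlarging replicate 3 of Chalingzipisuan 61 genes met the rule, 57 of them members. The other 26 members were no longer steady in Chalingzipisuan, and 15 of these 26 then moved there in the direction of Ershuizao. Of the rising members 15 were kept, and 16 rising genes met the rule.

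**Figure D5:**
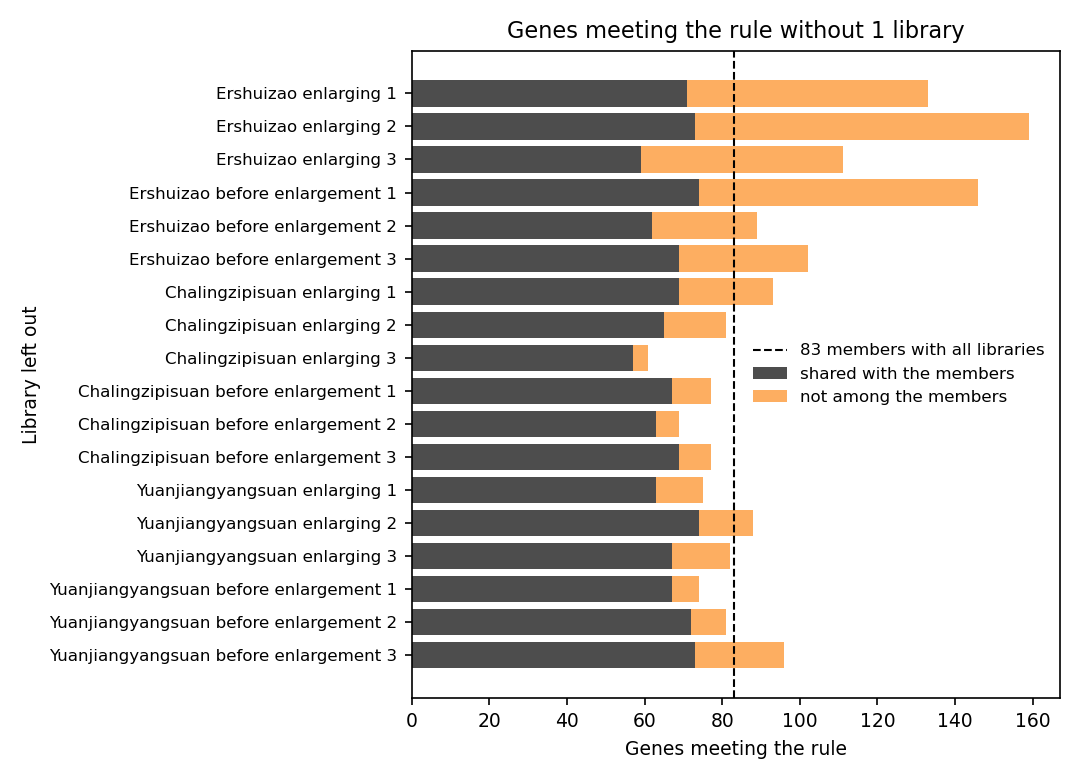
Number of genes that met the rule after leaving out each of the 18 libraries in turn (y axis), split into those shared with the 83 members (grey) and others (orange), with the 83 members as a dashed line. The grey bars lie between 57 and 74, and enlarging replicate 3 of Chalingzipisuan gives the shortest bar, at 61 genes.

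Only 5 members met the rule in each of the 18 sets of libraries, and all 5 were falling members. They also met it under each pseudocount and scaling tried, which 41 members did (12 rising, 29 falling). These 5 genes were picked after their values were seen. They were Asa1G03385.1, given above, and Asa1G04331.1, Asa8G06130.1, Asa4G02398.1 and Asa8G00083.1. Asa4G02398.1 had 0.994, 0.950 and 1.94 FPKM in enlarging Ershuizao bulbs, against 2.84, 4 and 3.98 FPKM before enlargement. Its 12 values in the other varieties were 2.29 to 12.7 FPKM, and its stage differences there were 0.01 and -0.01.

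Asa8G06130.1 had 0.891, 0.958 and 1.96 FPKM in enlarging Ershuizao bulbs, against 5.73, 3.49 and 2.96 FPKM before enlargement, and 2.99 to 6.70 FPKM in the other varieties. Its 3 enlarging Ershuizao libraries were the lowest of all 18, but they held 17 fragments together, against 62 before enlargement. Asa8G00083.1 had 4.92, 6.28 and 5.12 FPKM in enlarging Ershuizao bulbs, against 11.5, 12.6 and 11.8 FPKM before enlargement, with an SD within stages of 0.13 on the log2 scale. The other varieties had 5.16 to 12.5 FPKM, so that both Ershuizao stages lay within or near their range.

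Asa1G04331.1 departed from the other varieties at the other stage. It had 4.20, 1.23 and 1.87 FPKM in enlarging Ershuizao bulbs, against 7.46, 7.10 and 8.67 FPKM before enlargement, and 1.74 to 6.17 FPKM in the other varieties. Its libraries before enlargement lay above all 15 others. Counting error is wide for it, with 19 fragments in the enlarging Ershuizao libraries together, against 70 before enlargement.

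In identifier order, 3 pairs of members were direct neighbours, and both genes of each pair had the same direction. They were the pair Asa1G03591.1 and Asa1G03592.1, the pair Asa5G00798.1 and Asa5G00799.1, both given above, and the pair Asa6G05744.1 and Asa6G05745.1. Asa6G05744.1 had 2.47, 2.42 and 4.62 FPKM in enlarging Ershuizao bulbs, against 9.17, 5.71 and 12.1 FPKM before enlargement, and Asa6G05745.1 had 3.05, 1.97 and 3.70 FPKM in enlarging Ershuizao bulbs, against 6.71, 6.08 and 6.39 FPKM before enlargement. Whether the genes of a pair are near-identical copies that share reads was not examined here. By the digit that follows Asa in the identifier (0 to 8), members were spread over all digits. The digit 1 held 14.5% of the members and 8.45% of the expressed genes, and the digit 3 held 3.61% of the members and 9.21% of the expressed genes.

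None of the 13 genes that the study names in its text for bulb growth was a member, among them FT-like, DELLA and gibberellin 20-oxidase genes. Members were 83 of the 22496 expressed genes, so that a short list would rarely hold one, and nothing is read from this. The DELLA homolog Asa2G00237.1 and the gibberellin 20-oxidase gene Asa4G02474.1 did not meet the expression condition and could not be members. The same held for the TB1-like gene Asa2G00245.1 and the TGA4-like gene Asa6G01159.1. Of the 9 named genes that met the expression condition, 3 changed at least 2-fold without overlap in Ershuizao. Each of these also moved by at least 0.5 in the other varieties. The CDF2-homologous gene Asa8G01471.1, whose *Arabidopsis* relatives repress flowering time genes, had differences of 2.2 in Ershuizao, -1.30 in Chalingzipisuan and -0.64 in Yuanjiangyangsuan. It was left out because the other varieties moved the opposite way. The AXR1-like gene Asa2G00503.1, of the auxin response in *Arabidopsis*, came nearest in the other respect, since it was steady in both other varieties and did not overlap between the stages in Ershuizao, but its difference there was -0.49.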

How the data were processed

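The authors aligned clean reads to the garlic reference genome with HISAT2, left at its defaults, and the deposited FPKM values cover each gene in each of the 18 libraries. The counting program is not given in the sources used here. The FPKM values of 39933 genes were resolved into whole fragments (99.7% of values above 0, tolerance 0.003), which gave depth and gene length. Counting error applies to fragments and not to molecules. Members and lists were chosen with earlier results of these data known.

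Levels, as log2(FPKM + 0.5), were compared between varieties in limma (version 3.58.1, R version 4.3.3), with 6 group means, trend and robust moderation and Benjamini-Hochberg adjustment over 33681 genes with an FPKM of at least 0.5 in at least 3 libraries. Replicates were separate plants. Scripts were tested on simulated data. Named members were those with the largest differences, the most abundant, those called against both other varieties and those at the limit. Because no gene names are paired with identifiers, only the first 2 per direction were printed for each. Neighbours and the 5 stable members were named after their values were seen. Alternatives were other pseudocounts (0.1 and 1), scalings, filters, limits, fits and limma voom on fragments, and each library left out. Tables and plots were made in Python (3.11.15; numpy 2.4.6; pandas 2.3.3; matplotlib 3.10.9).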

Additional observations from a re-analysis of the deposited data

How the results depend on the processing

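The number of genes that met the rule was 83 (26 rising, 57 falling). It was 23 (9 rising, 14 falling) at a mean FPKM of at least 5, 23 (5 rising, 18 falling) when the other varieties had to differ by less than 0.25, and 172 (57 rising, 115 falling) at less than 0.75. Pseudocounts of 0.1 and 1 gave 91 and 66 genes, median-ratio scaling 79, quantile normalization 95 and depth-scaled fragments 106, with 69, 54, 69, 68 and 68 of the 83 members among them. Leaving out 1 library gave 61 to 159 genes, 16 to 62 of them rising and 45 to 97 falling. The members called on level numbered 3 to 7 without 1 library between Ershuizao and Chalingzipisuan (4 with all, and 7 without enlarging replicate 3 of Chalingzipisuan), 21 to 24 between Ershuizao and Yuanjiangyangsuan (23 with all) and 15 to 17 between Yuanjiangyangsuan and Chalingzipisuan (16 with all). On adjusted P alone, the second contrast gave 35 members (42.2%, against 33% of the expressed genes and 41.7% of all genes tested) and the third 29 (34.9%, against 29.8% and 38.7%), and a pseudocount of 1 gave 10 in the third. The level differences of the 4 members called against both other varieties kept their sign under the alternatives run. So did the stage differences of 19 named members in Ershuizao (those at the limit of the rule not among them). With no overlap between the stages, leaving out a library or changing the pseudocount cannot turn that sign, so nothing is read from it. The sizes did change, for Asa5G00798.1 from 1.33 to as little as 0.33. The members with few fragments are limited by depth.

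The replicate number as a block left the counts of members called on level at 4, 23 and 16. Over all genes tested, it gave 472, 8264 and 7786 calls, against 461, 8235 and 7769 without it. The deviations of libraries with the same number at both stages correlated at -0.295 to 0.233, and the numbers were treated as names that pair nothing. The other causes of these changes were not tested.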

Other observations

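The 3 enlarging libraries in which Asa2G01772.1, Asa5G00798.1 and Asa5G00799.1 were high were replicate 2 of Ershuizao, replicate 3 of Chalingzipisuan and replicate 1 of Yuanjiangyangsuan. For these 3 members they were also the 3 highest of all 18 libraries, which held for 3 of 83 members (3.61%) and 144 of the 22496 expressed genes (0.64%). Among the 9 enlarging libraries alone, these 3 were the highest for 3 of 83 members (3.61%; 11.5% of the rising members) and 2207 expressed genes (9.81%). The differences between these shares were not tested. The libraries were picked after these values were seen, and what the bulbs have in common was not tested.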
